A study of Owenia fusiformis with 26 samples.

Results

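The genes described here are those of the annelid *Owenia fusiformis* whose reads moved from one transcript to another between the oocyte and the larva. A gene was taken when it had at least 2 transcripts, when their values summed to at least 500 in both oocyte and both mature larva libraries, and when one transcript's share of that sum was at least 40 points higher in both libraries of one of these stages than in both of the other. Of 26966 genes, 3656 had 2 or more transcripts, 1137 of these passed the limit on the summed value, and 90 (7.92%) met the rule. The transcript whose share was higher in oocytes is called maternal here, and the one whose share was higher in mature larvae is called larval. The shares of the oocyte and the mature larva chose the genes, so these stages are described without a test, and the tests use only the libraries between them.

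An animal embryo starts with messenger RNA that the mother loaded into the egg, and later clears much of it while transcription from its own genome begins. One gene can give several transcripts, by starting transcription at another site, by splicing other exons together or by ending at another site. These can code for different proteins or carry different untranslated regions, and in muscle in particular, contractile protein genes of flies are known for their many splice forms. The sources used here do not say in which of these ways the transcripts of a gene differ, and no sequence of theirs was analysed here.

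The study asked how ERK1/2 signalling directs spiral cleavage in this early-branching annelid. The RNA-seq time course that it used was already available and covers untreated development. Libraries came as 2 replicates of each of 12 stages: oocytes, zygotes, 2-cell, 4-cell and 8-cell embryos, embryos at 3 and 4 hours post fertilisation (hpf), coeloblastulae at 5 hpf, gastrulae at 9 hpf, elongation at 13 hpf, early larvae at 18 hpf and mature larvae at 27 hpf. The samples are whole embryos or larvae, in which a change within a cell type and a change in how many such cells there are cannot be told apart. The study calls its time course one of 2 biological replicates. The labels do not say whether the 2 libraries of a stage came from separate parents or cultures, so p-values measure only the spread between libraries. The tests pool each gene's spread over all stages fitted, so a p-value does not measure the spread of the 2 stages compared alone.

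The values are normalised expression, scaled between libraries but not for transcript length. A share is thus a share of reads and not of molecules, and levels of different transcripts are compared only as reads. The sum of all values was between 31696498 and 39433145 per library, and the step between low values corresponded to an estimated 22.2 to 37.2 M reads. Of 6 genes known to be transcribed in larvae (*six3/6*, *foxQ2*, *cdx*, *hand2*, *twist* and *POU4*), every value lay between 223 and 4478 in mature larvae, against 0 to 73.2 in oocytes, as the stage labels require.

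In the libraries that chose them, the 90 genes had a median share gap of 51.7 points. The gap was at least 70 points in 17 genes, from 50 to 70 in 32 and from 40 to 50 in 41. The maternal transcript had a median level of 695 in mature larvae, against 2273 in oocytes, and the larval transcript of 2428 in mature larvae, against 116 in oocytes. The larval transcript was listed at 0 in both oocyte libraries in 16 genes, and the maternal transcript at 0 in both mature larva libraries in 2. The transcript with the most reads of the gene was another one in mature larvae than in oocytes in 80 genes, and the same in 10. In 9 genes the maternal transcript still had the most reads in mature larvae. Which transcript has the most reads depends on its length as well. A complete exchange was uncommon: in 5 genes the larval transcript held over 90% of the pair in both mature larva libraries and under 10% in both oocyte libraries.

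The summed output of these genes changed in either direction. Summed over all transcripts, 40 of the 90 genes were within 2-fold of each other at both ends, 32 were more than 2-fold higher in mature larvae and 18 more than 2-fold lower. The median summed level was 3768 in mature larvae, against 2658 in oocytes, while in the genes over the summed limit that did not meet the rule it was 2012 in mature larvae, against 2223 in oocytes. More of the 90 genes had many transcripts: 44.4% had exactly 2, against 73.4% of all genes over the limit, which is partly set by the rule, since a gene with more transcripts has more chances to meet it. In the 50 genes with 3 or more transcripts, the maternal and larval transcript together held a median of 79.8% of the gene's summed value in mature larvae, against 92.7% in oocytes.

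**Figure D1:**
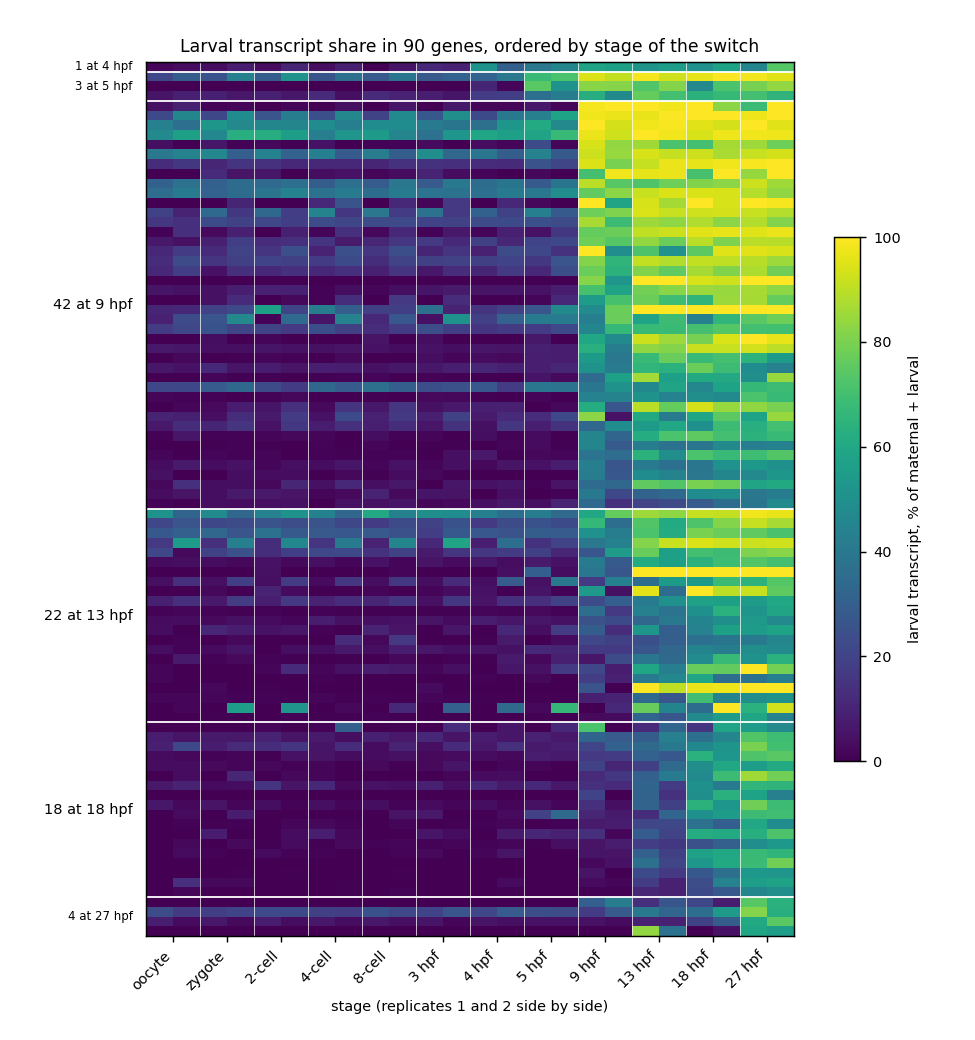
Share of the larval transcript in the sum of maternal and larval transcript (colour, percent) for 90 genes (rows) in 24 libraries (columns, 2 per stage), with rows grouped by the stage of the switch. The early columns are dark in most genes up to 5 hpf, and the change in 42 genes falls at 9 hpf; unequal neighbouring columns at 9 hpf show genes whose replicates differ.

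Along the time course the larval share of the pair stayed flat through cleavage, rose most between 5 and 9 hpf and went on rising to 27 hpf. No stage was sampled between 5 and 9 hpf. Its median over the 90 genes was 3.32% in oocytes, 4.18% in zygotes, 4.97% in 4-cell embryos and 4.95% at 4 hpf, then 7.94% in coeloblastulae, 37.0% in gastrulae, 60.0% at elongation, 63.4% in early larvae and 71.5% in mature larvae. At 4 hpf, 84 of the 90 genes were still within 10 points of their oocyte share. Measured as the way from each gene's oocyte share to its mature larva share, the median gene had gone 0.549% by 4 hpf, 2.99% in coeloblastulae, 52.0% in gastrulae, 78.8% at elongation and 92.6% in early larvae.

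Each gene's switch was placed at the first stage from which its mean larval share stayed above the midpoint of its end values. That stage was 4 hpf for 1 gene, 5 hpf for 3, 9 hpf for 42, 13 hpf for 22, 18 hpf for 18 and 27 hpf for 4. By 9 hpf, then, 46 genes had passed their midpoint and by 13 hpf 68 had. Where a larval share over 50% is asked for in place of the midpoint, 27 genes fall at 9 hpf, 16 are placed at 27 hpf, and 8 at no stage.

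**Figure D2:**
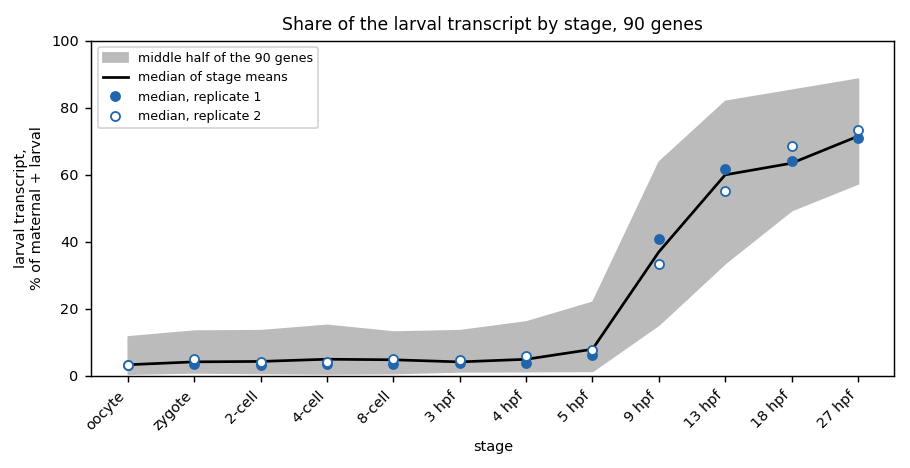
Larval share of the pair (percent) at 12 stages for 90 genes, as the median of stage means (line), the medians of replicates 1 and 2 (points) and the span between the lower and upper quartile (band). The median stays between 3.32% and 4.97% up to 4 hpf and is 37.0% at 9 hpf and 60.0% at 13 hpf.

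Tests of the ratio of larval to maternal transcript found the largest number of changes between 5 and 9 hpf. The ratio was taken as a difference of log2(value + 10) and tested with limma over 2279 genes with 2 or more transcripts and the 20 libraries from zygote to early larva, with a call at a Benjamini-Hochberg adjusted p under 0.05. In all 2279 genes the pair was set by the oocyte and mature larva shares, so more rises than falls are built in, and the share called among all of them is the background. Neighbouring comparisons share a stage and are not independent. They also span unequal lengths of time, so their numbers of changes are not rates.

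From zygote to 4 hpf no gene of the 90 was called (limma, 0 higher and 0 lower, against 0.0439% higher and 0.0439% lower of all tested). At an unadjusted p under 0.05, 5 were higher and 1 lower. The share of all tested genes that pass an unadjusted p was not determined, so such counts have no background. At 5 hpf against 4 hpf, 1 of 90 was higher, against 0.132% of all tested, and that call was lost without coeloblastula replicate 1 or 4 hpf replicate 2, when 0 remained. At 9 hpf against 5 hpf, 48 of 90 were higher and 0 lower, against 9.92% higher and 2.06% lower of all tested and 9.23% higher of the 953 tested genes over the summed limit that did not meet the rule. The median change was 2.97 on the log2 scale, against 0.58 for all genes tested. At an unadjusted p under 0.05, 63 genes passed, again without a background. With only the libraries of both stages in the fit, and so without the pooled spread, 0 were called. The 48 include OFUSG19990, whose larval transcript was listed at 0 in all libraries of both stages, so that its change of 2.57 (limma adjusted p = 0.0310) comes from a lower maternal transcript alone and its larval share was 0% at both. How many genes are called here rests on single libraries: 27 were called without coeloblastula replicate 2 and 30 without gastrula replicate 1.

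At 13 hpf against 9 hpf, 9 of 90 were higher, against 1.58% of all tested, with a median change of 1.17, against 0.32 for all. Only 2 were called without elongation replicate 1 and 5 without gastrula replicate 2. From 13 to 18 hpf, 0 were higher and 2 lower in limma, against 0.57% higher and 0.219% lower of all tested. At an unadjusted p under 0.05, 9 were higher and 3 lower, again without a background. A replicate block in the fit gave 2 higher. Both falls are lost when early larva replicate 1 or elongation replicate 1 is left out, after which 0 were lower.

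Over the whole span from zygote to 18 hpf, the ratio was higher in 85 of the 90 genes and lower in 0, against 33.3% higher and 2.76% lower of all tested and 36.2% higher of the genes over the limit that did not meet the rule. All 90 changes were positive, from 1.08 to 13.39, with a median of 5.53 on the log2 scale, against 1.42 for all genes tested. In the zygote, 84 of the 90 genes had a larval share within 10 points of their oocyte share. At 18 hpf the median gene had gone 92.6% of the way to its mature larva share. Both stages thus lie close to those that chose the genes, so this outcome largely follows from the rule and is a description. In 10 genes the larval transcript was listed at 0 in both zygote libraries or the maternal one in both early larva libraries, and there the size of the change depends on the pseudocount. The median over the 90 genes was 6.29 with a pseudocount of 1 and 4.91 with 50, and over the other 80 genes it was 5.40 with the pseudocount of 10. Leaving out 1 library at a time gave 77 to 83 genes. The 5 genes not called were OFUSG05631, OFUSG08091, OFUSG08474, OFUSG09752 and OFUSG17894. With the replicate block 87 genes were higher, as OFUSG05631 (limma adjusted p = 0.0124, against 0.127 without it) and OFUSG09752 (adjusted p = 0.000435, against 0.0636 without it) were then called.

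In larval share, the gastrula libraries differed from each other more than those of any other stage. The tests use log2 ratios, and the spread of single stages on that scale was not determined. Since each gene's spread is pooled over stages, p-values of comparisons with the gastrula may not carry a larger spread there in full. The larval share of the 2 replicates differed by a median of 11.6 points in gastrulae, 6.24 at elongation and 5.85 in early larvae, and by 2.18 to 2.71 points at each stage up to 5 hpf. Replicate 1 had the higher larval share in 58 genes at 9 hpf and replicate 2 in 31. At 13 hpf replicate 1 was higher in 55 and replicate 2 in 34, while at 18 hpf replicate 2 was higher in 52 and replicate 1 in 36. Whether the replicates differ in developmental time was not tested.

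Between the gastrula replicates, 5 genes differed by over 40 points. OFUSG17825 had a larval share of 82.7% in gastrula replicate 1 and 4.87% in replicate 2, and OFUSG08474 had 71.6% and 0%. OFUSG04991 had 53.7% and 4.61%, OFUSG21556 100% and 48.9%, and OFUSG03135 100% and 58.5%. In all 5, replicate 1 was the higher. OFUSG05631 showed such gaps away from the gastrula: its larval transcript had 0 and 1934 in the zygote replicates, and its maternal transcript 1123 and 0 in those of the early larva. Its ratio was called over the whole span only with the replicate block.

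**Figure D3:**
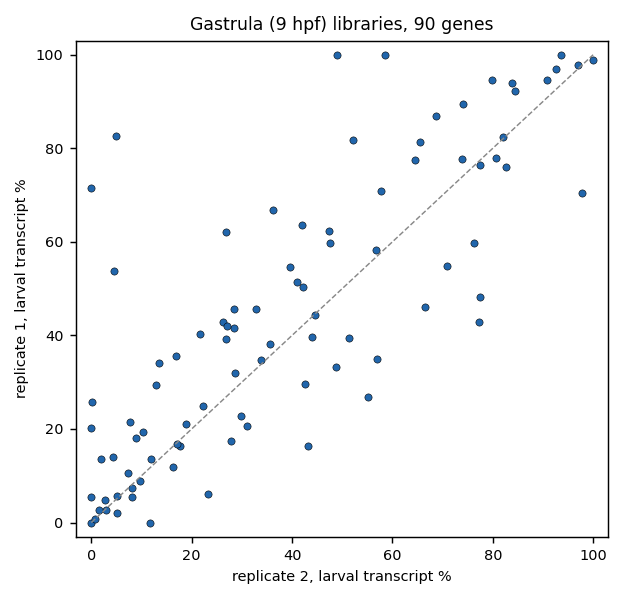
Larval share of the pair (percent) in gastrula replicate 1 (vertical) and replicate 2 (horizontal), 1 point per gene, 90 genes, with the line of equal shares dashed. Points lie above the line in 58 genes and below it in 31, and 19 genes differ by more than 20 points.

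A larger share of larval transcript can come with less of the maternal transcript, more of the larval one, or both, and all of these were seen. Levels were tested with limma on log2(value + 10) over 27469 transcripts and, for sums, 23488 genes. Between zygote and 18 hpf, 67 of 90 maternal transcripts fell, 10 rose and 13 were not called, against 18.1% lower and 35.3% higher of all transcripts tested. Of the larval transcripts, 70 rose, 4 fell and 16 were not called. The median change was -2.23 for maternal and 3.58 for larval transcripts on the log2 scale, against 0.53 for all transcripts. Rescaling by a trimmed mean of M-values (TMM) moves the median of all transcripts by -0.30 in this comparison and by -0.24 between 4 and 9 hpf, so single small changes of level depend on the scaling, while the ratio within a gene does not.

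Taken gene by gene at 18 hpf against zygote, the maternal transcript fell and the larval one rose in 49 genes. In 14 the maternal transcript fell and the larval one was not called, and in 11 the larval transcript rose and the maternal one was not called. In 10 genes both rose, the larval one further, so that the larval transcript was added beside a maternal one that increased: these were OFUSG06099, OFUSG08010, OFUSG08652, OFUSG09045, OFUSG09240, OFUSG10197, OFUSG11159, OFUSG17894, OFUSG18079 and OFUSG21172. With TMM scaling the maternal transcript rose in 8 genes, and in OFUSG17894 the ratio itself was not called. In 4 genes both fell, the maternal one further (OFUSG02679, OFUSG19099, OFUSG19721 and OFUSG22278). Neither was called in 2. How often such joint patterns occur among all pairs tested was not determined, and the rule itself favours pairs whose shares move in opposite directions. For the genes in which both rose, a switch describes the shares and not the levels.

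The summed level rose in 28 of the 90 genes between zygote and 18 hpf, fell in 32 and was not called in 30, against 36.8% higher and 19.7% lower of all genes tested; with TMM scaling 21 rose and 39 fell. All 10 genes in which both transcripts rose had a higher sum. Of the 49 in which the transcripts moved in opposite directions, the sum was higher in 12, lower in 18 and not called in 19.

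**Figure D4:**
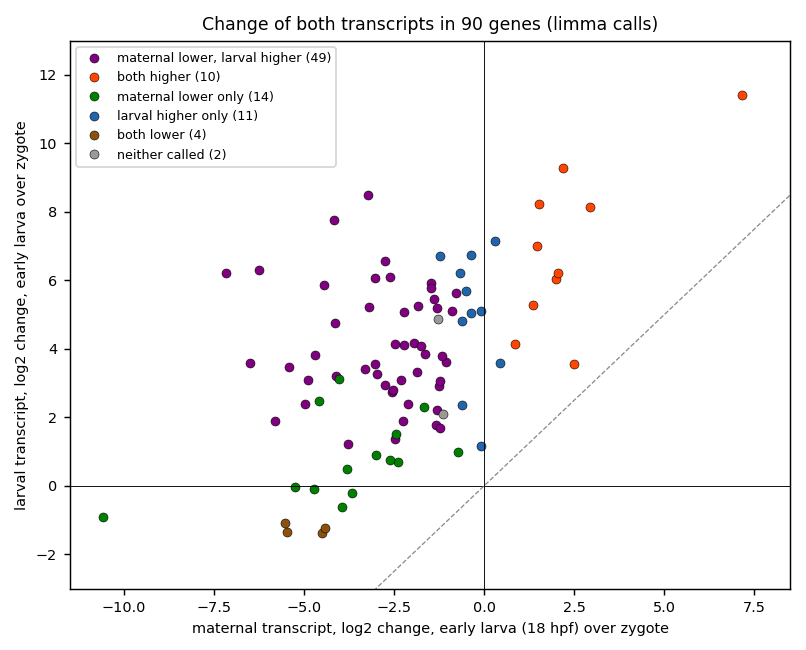
Log2 change of the maternal transcript (horizontal) and of the larval transcript (vertical) at 18 hpf over zygote, 1 point per gene, coloured by the limma calls of both, with the line of equal change dashed. All 90 points lie above that line; the upper left holds the 49 genes in which the maternal transcript fell and the larval one rose, and the upper right the 10 in which both rose.

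Between 4 and 9 hpf, 48 maternal transcripts fell and 6 rose, against 13.2% lower and 25.7% higher of all transcripts tested, and 47 larval transcripts rose and 0 fell. Both moved in opposite directions in 20 genes, the maternal one alone fell in 28 and the larval one alone rose in 22. The share of such joint patterns among all pairs tested was not determined here either. The summed level rose in 19 genes and fell in 33, against 28.3% higher and 14.7% lower of all genes, and with TMM scaling in 8 and 41. Of the 46 genes that passed their midpoint by 9 hpf, 31 had a lower maternal and 30 a higher larval transcript at 9 hpf against 4 hpf. Of the 22 genes placed at 13 hpf these were 8 and 10, and of the 22 placed at 18 or 27 hpf they were 9 and 7. The ordering of these 3 classes at 9 hpf follows from how they were made and is given as a description.

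At 18 hpf against zygote the maternal transcript was higher in 2 of the 46 genes placed by 9 hpf. It was higher in 2 of the 22 placed at 13 hpf and in 6 of the 22 placed at 18 or 27 hpf. Of all transcripts tested, 35.3% were higher in this comparison. The difference between these classes was not tested.

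Protein names could be given to 10 of the 90 genes, from the best sequence matches in the study's list of genes that responded to drugs, so the named genes are not a sample of all 90; 2 further genes of that list (OFUSG08655 and OFUSG09045) had no match. Of the 10, troponin T, myosin heavy chain, tektin-3 and CLIP2 belong to muscle or the cytoskeleton. FOXJ3 is a transcription factor, WNK1 a kinase and MDR1 a transporter, while nostrin, FHL2 and the KIAA0825 protein belong to none of the groups counted. In all 10 the ratio of larval to maternal transcript was higher at 18 hpf than in the zygote. It was so in all 90, and this largely follows from the rule. The changes of the ratio over this span are thus given for single genes as descriptions, also where a p-value stands beside them.

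Troponin T (OFUSG08010) ties the troponin complex to tropomyosin on the thin filaments of muscle. Its larval transcript, OFUSG08010.1, had a lowest, median and highest value of 0, 17.2 and 201 in the 16 libraries up to 5 hpf, then 166 and 91.8 in gastrulae, 3624 and 2531 at elongation, 17035 and 15959 in early larvae, and 36463 and 35935 in mature larvae. Its maternal transcript, OFUSG08010.4, was abundant from the start, with 8876, 11565 and 13936 up to 5 hpf, and went on to 21219 and 14089 in gastrulae, 29821 and 25241 at elongation, 58335 and 42356 in early larvae, and 43267 and 36689 in mature larvae. So the larval transcript came up from near the floor beside a maternal one that grew as well. The maternal transcript still had the most reads in mature larvae, at 50.3% and 46.8% of the gene, against 42.4% and 45.8% for the larval one. At 18 hpf against zygote the larval transcript rose by 9.28 ± 0.83 (log2, SE, limma adjusted p = 5.73e-07), the maternal one by 2.18 ± 0.25 (adjusted p = 6.17e-06), and the ratio by 7.10 ± 0.92 (adjusted p = 8.34e-05). The rise of the ratio from 9 to 13 hpf was called only with the replicate block (limma adjusted p = 0.0303, against 0.0595 without it).

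Myosin heavy chain (OFUSG11159; best match a striated muscle myosin), the motor of the thick filament, followed the same course. Its larval transcript, OFUSG11159.3, had a lowest, median and highest value of 0, 4.15 and 49.7 up to 5 hpf, then 1492 and 1071 in gastrulae, 8612 and 10224 at elongation, 33362 and 47812 in early larvae, and 49391 and 58190 in mature larvae. The maternal transcript, OFUSG11159.1, had 250, 477 and 1068 up to 5 hpf, then 5573 and 4635 in gastrulae, 26413 and 23597 at elongation, 58378 and 75123 in early larvae, and 72654 and 69858 in mature larvae. Both transcripts were above all their earlier libraries from 9 hpf on. In mature larvae the maternal transcript still had the most reads, at 34.2% and 31.0% of the whole gene. A further transcript, OFUSG11159.4, held 31.8% and 29.9% of the whole gene in mature larvae, against 18.4% and 2.61% in oocytes. With 67438 and 67379 in mature larvae it was above the larval transcript there. At 18 hpf against zygote the larval transcript rose by 11.43 ± 0.75 (log2, SE, adjusted p = 3.35e-08) and the maternal one by 7.14 ± 0.39 (adjusted p = 6.71e-09), the largest rise of a maternal transcript among the 10 that rose. The rise of the ratio, 4.29 ± 1.08 (adjusted p = 0.00778), was lost without zygote replicate 1 (adjusted p = 0.0586). Between 5 and 9 hpf the ratio passed the threshold only with the replicate block (adjusted p = 0.0110, against 0.0679 without it).

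FHL2 (OFUSG00871), a LIM-domain protein that in mammals is best known from heart muscle, switched late. The larval transcript, OFUSG00871.3, had a lowest, median and highest value of 0, 7.33 and 47.4 up to 5 hpf, then 10.6 and 12.5 in gastrulae, 312 and 158 at elongation, 2153 and 2879 in early larvae, and 5406 and 5455 in mature larvae. The maternal one, OFUSG00871.2, dipped and came back: it had 1618 and 1235 in zygotes, 565 and 403 at 4 hpf, 180 and 234 in gastrulae, 711 and 671 at elongation, 1606 and 1914 in early larvae and 2559 and 2868 in mature larvae. At 18 hpf against zygote, the larval transcript rose by 7.15 ± 0.67 (log2, SE, adjusted p = 8.58e-07), while the maternal one, at 0.31 ± 0.33 (adjusted p = 0.465), was not called.

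Tektin-3 (OFUSG10091), a filament protein of the microtubules in cilia and flagella, had its maternal transcript nearly replaced between gastrula and elongation. The maternal transcript, OFUSG10091.2, had a lowest, median and highest value of 2266, 2861 and 4105 up to 5 hpf, then 1597 and 1672 in gastrulae, 46.8 and 355 at elongation, 332 and 194 in early larvae, and 0 and 8.64 in mature larvae. The larval one, OFUSG10091.4, had 0, 0 and 124 up to 5 hpf, then 554 and 1.04 in gastrulae, 6560 and 3417 at elongation, 11147 and 7807 in early larvae, and 12018 and 8917 in mature larvae. Only gastrula replicate 1 held the larval transcript above its earlier range. Another transcript, OFUSG10091.5, came up as well: of the whole gene it held 4.91% and 19.4% in gastrulae, 15.2% and 34.8% at elongation, 0.0797% and 27.0% in early larvae, and 44.8% and 51.8% in mature larvae, where OFUSG10091.4 held 53.7% and 45.2%. The ratio rose by 9.42 ± 1.66 (log2, SE) at 13 hpf against 9 hpf, the largest rise at that step (limma adjusted p = 0.0131), a call lost without elongation replicate 1 (adjusted p = 0.175) or gastrula replicate 2 (adjusted p = 0.0595). Over the whole span it rose by 11.73 ± 1.66 (adjusted p = 0.00016), with changes of -3.22 ± 0.58 for the maternal transcript and 8.51 ± 1.50 for the larval one on the log2 scale, and the summed level rose by 2.02 ± 0.30 (adjusted p = 4.52e-05).

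CLIP2 (OFUSG24224), a linker of microtubules, changed its balance without a called loss of the maternal transcript. The larval transcript, OFUSG24224.2, had a lowest, median and highest value of 20.9, 245 and 553 up to 5 hpf, then 635 and 1377 in gastrulae, 1852 and 1533 at elongation, 1633 and 2610 in early larvae, and 2180 and 2608 in mature larvae. The maternal one, OFUSG24224.3, differed between replicates, with 692 and 1187 in early larvae, against 2080 and 937 in zygotes. The ratio rose by 2.99 ± 0.65 (log2, SE) at 18 hpf against zygote (adjusted p = 0.0033), in a gene whose libraries do not overlap in larval share between these stages, at 70.2% and 68.7% in early larvae, against 19.2% and 24.8% in zygotes.

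FOXJ3 (OFUSG23528), a forkhead transcription factor, was among the 3 genes placed at 5 hpf. Its maternal transcript, OFUSG23528.1, had 1243 and 1264 in zygotes, 536 and 706 at 4 hpf, 289 and 307 at 5 hpf, 76.5 and 149 in gastrulae, 135 and 1.15 in early larvae, and 120 and 230 in mature larvae. The larval one, OFUSG23528.4, was present from the oocyte on, with 421 and 981 in zygotes, 246 and 474 at 4 hpf, 595 and 755 at 5 hpf, 1358 and 1484 in gastrulae, 2175 and 1871 at elongation, 3475 and 3368 in early larvae, and 6916 and 4782 in mature larvae. The larval share was 67.3% and 71.1% at 5 hpf, against 31.5% and 40.2% at 4 hpf. The ratio changed by 1.97 ± 1.00 (log2, SE) at that step and was not called (limma, unadjusted p = 0.0719). At 9 hpf against 5 hpf it was not called either (2.46 ± 1.00, limma adjusted p = 0.148), so the placement at 5 hpf is a description. At 18 hpf against zygote the ratio rose by 7.37 ± 1.00 (log2, SE, adjusted p = 0.000123), with changes of -4.97 ± 0.86 (adjusted p = 0.000241) for the maternal transcript and 2.39 ± 0.49 (adjusted p = 0.000892) for the larval one.

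WNK1 (OFUSG06195), a kinase known in mammals for control of ion transport, had the largest rise of the ratio between 5 and 9 hpf. The maternal transcript, OFUSG06195.3, had 1585 and 1892 at 5 hpf, 3.52 and 0 in gastrulae, 0 and 9.52 at elongation, 0 and 95.2 in early larvae and 132 and 0.962 in mature larvae. The larval transcript, OFUSG06195.2, had 109 and 23.6 at 5 hpf, 289 and 935 in gastrulae, 446 and 477 at elongation, 168 and 450 in early larvae and 285 and 751 in mature larvae. Of this pair, the larval transcript held 98.8% and 100% at 9 hpf, against 6.41% and 1.23% at 5 hpf. Of the whole gene it held only 43.2% and 56.6% in gastrulae, since another transcript, OFUSG06195.5, held 38.8% and 27.9% there, against 1.02% and 1.04% at 5 hpf. In mature larvae OFUSG06195.1 had the most reads, at 30.8% and 40.2% of the gene, against 8.98% and 12.4% in oocytes. The larval transcript held 28.4% and 39.3% of the gene in mature larvae. The maternal transcript was uneven between replicates later on, at 0% and 8.17% of the gene in early larvae and 13.2% and 0.0503% in mature larvae. The ratio rose by 10.30 ± 1.29 (log2, SE, adjusted p = 0.00028) at 9 hpf against 5 hpf, just ahead of OFUSG02728 at 10.23. In both genes a transcript was at or near 0 at one of these stages, so the sizes and their order depend on the pseudocount. Against 4 hpf the maternal transcript of WNK1 changed by -7.48 ± 0.74 in gastrulae (adjusted p = 4.59e-06).

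Nostrin (OFUSG15882), an adaptor of membrane trafficking in mammals, had far less of its maternal transcript from the gastrula on. OFUSG15882.4 had a lowest, median and highest value of 1222, 2098 and 2383 up to 5 hpf, then 145 and 169 in gastrulae, 141 and 73.0 at elongation, 264 and 191 in early larvae, and 436 and 521 in mature larvae. The larval transcript, OFUSG15882.5, had 0, 31.6 and 119 up to 5 hpf, then 175 and 111 in gastrulae, 296 and 246 at elongation, 546 and 456 in early larvae, and 801 and 622 in mature larvae. The summed level fell by 1.30 on the log2 scale at 18 hpf against zygote (SE 0.20, adjusted p = 7.72e-05). The ratio rose by 8.42 ± 0.74 over that span (adjusted p = 4.76e-06). Its rise of 3.24 ± 0.74 from 5 to 9 hpf (adjusted p = 0.0117) was lost without gastrula replicate 1 (adjusted p = 0.0905), coeloblastula replicate 1 (adjusted p = 0.0510) or coeloblastula replicate 2 (adjusted p = 0.0718).

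MDR1 (OFUSG01405), a transporter that pumps compounds out of cells, came to divide its reads between both transcripts. The larval transcript, OFUSG01405.2, was low and uneven before 4 hpf. It had 185 and 0 in oocytes, 0 and 209 in zygotes, 178 and 172 in 2-cell embryos and 107 and 36.9 at 3 hpf. It then had 0 and 0 at 4 hpf, 0 and 0 at 5 hpf, 673 and 516 in gastrulae, 1864 and 1030 at elongation, 2303 and 2327 in early larvae, and 7683 and 6103 in mature larvae. The maternal one, OFUSG01405.1, had 4391 and 4931 at 4 hpf, 2617 and 3770 at 5 hpf, 929 and 1388 in gastrulae, 1956 and 1280 at elongation, 3492 and 2750 in early larvae, and 8610 and 5430 in mature larvae. It fell to the gastrula and then came back with the larval one. At 9 hpf against 5 hpf the ratio rose by 7.36 ± 1.38 (log2, SE, adjusted p = 0.0037), from a larval transcript listed at 0. The size of this change thus depends on the pseudocount. From the gastrula on the larval share moved between 27.1% and 52.9%.

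The KIAA0825 protein (OFUSG20121) kept much of its maternal transcript. Its larval transcript, OFUSG20121.3, had 418 and 131 in gastrulae, 314 and 432 in early larvae and 546 and 456 in mature larvae, after a median of 44.6 up to 5 hpf, and its maternal transcript, OFUSG20121.4, had 784 and 794 in early larvae, against 2318 and 1701 in zygotes. The ratio rose by 3.54 ± 0.92 (log2, SE, adjusted p = 0.00932) at 18 hpf against zygote and was just lost without early larva replicate 2 (adjusted p = 0.0501).

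**Figure D5:**
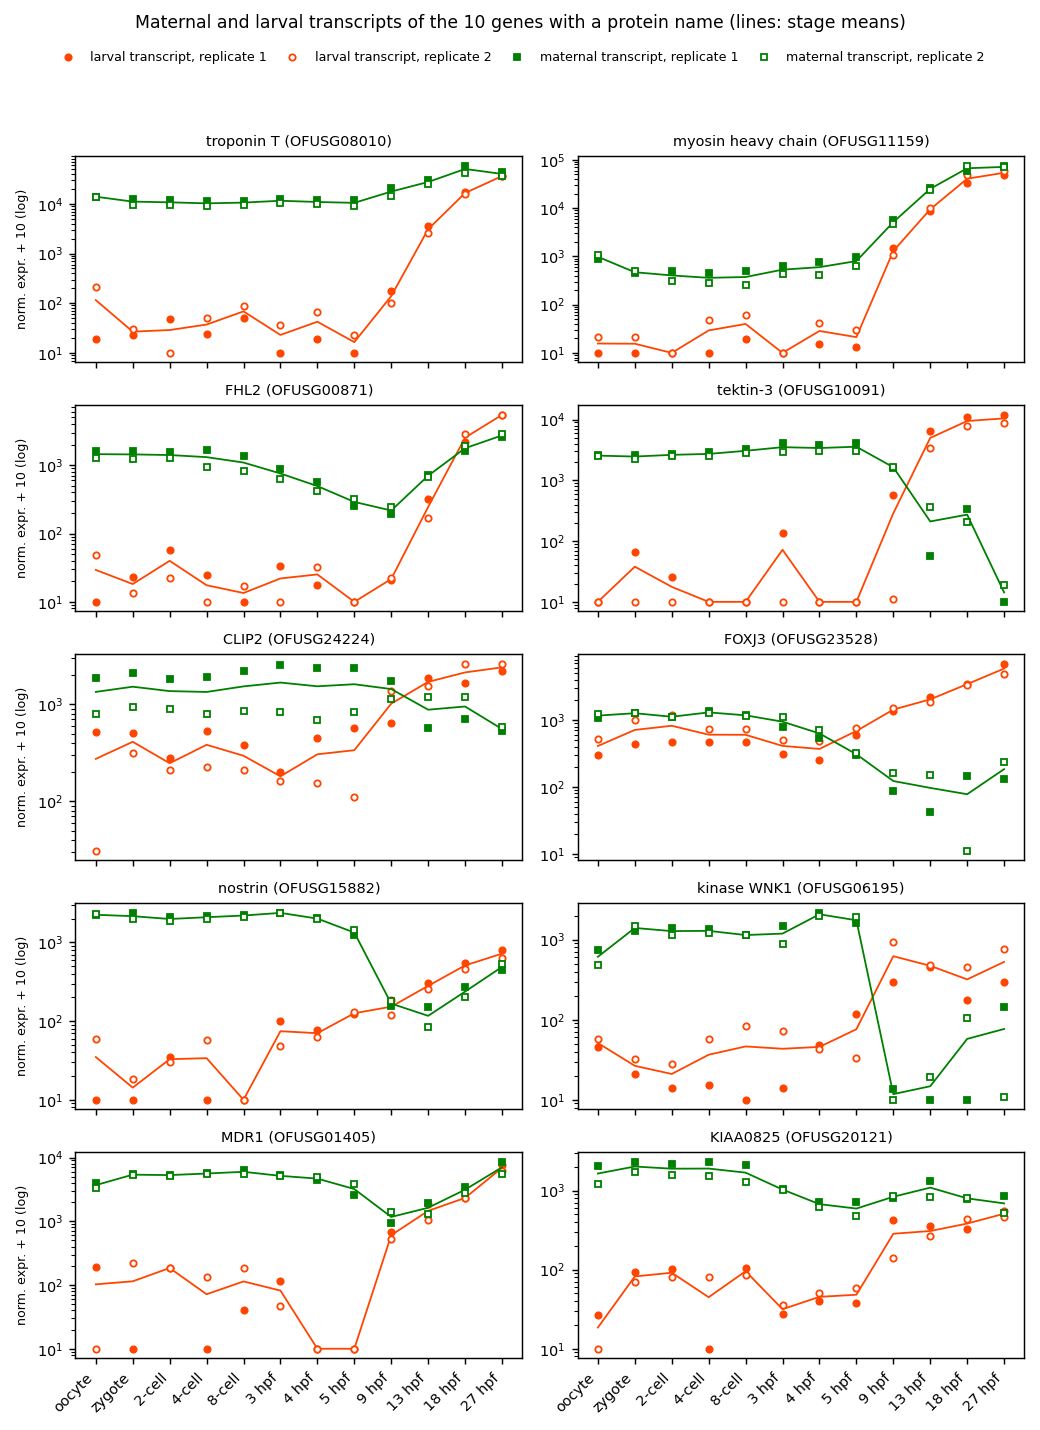
Normalised expression plus 10 (log axis) of the larval (circles) and maternal (squares) transcript of the 10 genes with a protein name, at 12 stages, with replicate 1 filled, replicate 2 open and lines through the stage means. In troponin T and myosin heavy chain both transcripts rise, while in WNK1 the maternal transcript is at 3.52 and 0 in the gastrula libraries, before the pseudocount, against 1585 and 1892 at 5 hpf.

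The 5 genes with the largest share gaps carry no protein name. OFUSG04435 had 5640 and 11579 of its maternal transcript in gastrulae, 2514 and 3357 at elongation, 838 and 1176 in early larvae and 838 and 1502 in mature larvae, after 13019 to 34794 (median 21609) up to 5 hpf. Its larval transcript had 659 to 2120 (median 1158) up to 5 hpf, then 9816 and 8396 in gastrulae, 12752 and 14789 at elongation, 9648 and 12644 in early larvae, and 11129 and 13341 in mature larvae. The groups up to 5 hpf and from 9 hpf on did not overlap for either transcript. Its ratio rose by 3.63 ± 0.45 (log2, SE, adjusted p = 0.00028) at 9 hpf against 5 hpf and by 7.98 ± 0.45 over the whole span (adjusted p = 2.19e-07).

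OFUSG26197 lost its maternal transcript completely as far as these libraries show: it was listed at 0 in all 6 libraries from 13 hpf on, after 250 and 120 in gastrulae and 417 to 2341 (median 743) up to 5 hpf. Its larval transcript went on to 989 and 720 at elongation, 3800 and 2294 in early larvae and 5763 and 2194 in mature larvae. OFUSG11800 and OFUSG00166 passed their midpoint in gastrulae, the larval share reaching 59.8% and 47.6% in the gastrula libraries of OFUSG11800 and 94.6% and 79.9% in those of OFUSG00166. OFUSG16848 had 2068 and 1899 of its larval transcript in gastrulae, after a median of 26.4 up to 5 hpf, while its maternal transcript differed between replicates from then on, with 869 and 43.8 in gastrulae and 2855 and 38.9 in early larvae. In each of these 5 genes the ratio rose over the whole span, by 7.69 to 10.09 on the log2 scale (adjusted p from 2.19e-07 to 0.00354).

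A few genes were called or placed far from gastrulation, towards either edge of the time course. OFUSG07141 was the one gene called between 4 and 5 hpf: its larval transcript had 1633 and 1099 at 5 hpf, against 83.5 and 22.8 at 4 hpf, and had been at 0 in 11 of the 12 earlier libraries. The ratio rose by 4.89 ± 0.76 (log2, SE, adjusted p = 0.0210), and was not called without coeloblastula replicate 1 (adjusted p = 0.293) or 4 hpf replicate 2 (adjusted p = 0.137). OFUSG06250, the only gene placed at 4 hpf, had 140 and 535 of its maternal transcript there and 393 and 800 at 3 hpf, with a larval transcript of 147 and 232 at 4 hpf and 49.3 and 84.6 at 3 hpf. Its ratio was not called at 4 hpf against zygote (3.52 ± 0.89, limma adjusted p = 0.193). Nor was it called at 9 hpf against 5 hpf (0.81 ± 0.89, limma adjusted p = 0.662), so this placement is a description. At the other end, OFUSG20482 had 7479 and 12676 of its larval transcript in mature larvae, against 1468 and 2711 in early larvae.

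OFUSG02728 had the largest rise over the whole span, 13.39 ± 0.58 on the log2 scale (SE, adjusted p = 3.96e-08), a size set in part by the pseudocount. Its larval transcript was at 0 in every library from zygote to 5 hpf and had 1001 and 730 in gastrulae, 897 and 1314 at elongation, and 827 and 661 in early larvae. The maternal transcript had 6324 and 4853 at 5 hpf, 223 and 671 in gastrulae, 0 and 0 at elongation, and 52.4 and 51.6 in early larvae. That return of a few maternal reads is one of the falls of the ratio called at 18 hpf against 13 hpf (-3.18 ± 0.58, adjusted p = 0.0305), which was lost without any one of the 4 libraries.

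The other fall was that of OFUSG19990 (-4.58 ± 0.71, adjusted p = 0.0127), which was lost without early larva replicate 1 (adjusted p = 0.135) or elongation replicate 1 (adjusted p = 0.0555). Its larval transcript, at 0 in all 18 libraries up to 9 hpf, had 59.5 and 34.9 at elongation, 0 and 18.3 in early larvae and 592 and 554 in mature larvae. Its maternal transcript had 11.4 and 58.2 at elongation, 198 and 353 in early larvae and 411 and 438 in mature larvae. The gene was thus low in both transcripts at elongation, where the larval share was 83.9% and 37.5%. The larval transcript was listed at 0 in all 14 libraries up to 4 hpf in 4 genes, the others being OFUSG06099, OFUSG06351 and OFUSG09045.

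At the limit of the rule, the last gene inside was OFUSG17834, with a gap of 40.2 points: its maternal share was 18.7% and 37.1% in mature larvae, against 77.3% and 83.0% in oocytes. The first gene outside, OFUSG20018, had a gap of 39.2 points, with a maternal share of 52.1% and 28.3% in mature larvae, against 99.4% and 91.3% in oocytes. OFUSG17834 passed its midpoint only in mature larvae.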

How the data were processed

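RNA-seq libraries of 12 stages, 2 each, were analysed. The deposited table gives a normalised signal for each transcript in each library, as the authors made it, and kallisto 0.46.2 and DESeq2 1.30.1 are named in the submitters' processing notes. Kallisto divides reads that fit several transcripts of a gene among them, so a share is an estimate, and transcripts that share much sequence are less certain. The values are not counts (in one library only 71.5% of low values were within 0.1 of a whole read), so no count test was used. The labels name 2 stages as 3 and 4 hpf and the columns name them by cell number; 4 hpf was matched from the study's text and 3 hpf as the one left. A further 3 columns matched no sample and were not used. Peaks of the ATAC-seq libraries were not used, since no annotation used here places these genes on the scaffolds.

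Shares were taken in Python 3.11.15 (pandas 2.3.3, numpy 2.4.6). The maternal transcript had the largest drop from its lowest oocyte share to its highest mature larva share, and the larval transcript the largest such rise. Ratios and levels were tested in R 4.3.3 by limma 3.58.1 with its trend option, in 20 libraries and with no factor but stage. Ratios needed a mean summed value of at least 100, and levels had to reach 10 in 2 libraries or more. Whether replicate numbers pair the libraries was checked by correlating replicate differences of different stages across genes: all 45 pairs of stages were over 0.1 for the ratio (0.155 to 0.651). The labels give only the number. The replicate block is named beside a gene whose printed call it changes or a count that it moves by over 1.5 times. The fit was tested on simulated data.

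The genes, lists and tests were chosen with earlier results of these data known. Named are genes with a best match in the study's list, those with the 5 largest gaps, those at the limit of the rule, the largest called change in each direction at each step, and any gene whose change went against its direction (none did over the whole span). OFUSG06250, OFUSG20482, the genes listed by pattern of calls and those with unequal replicates were chosen after their values were seen. Alternatives were pseudocounts of 1 and 50, no filter, no trend, only the 2 stages compared, all 24 libraries, the larval transcript over all others, TMM scaling, the replicate block, leaving out each library, and another definition of the stage of the switch.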

Additional observations from a re-analysis of the deposited data

How the results depend on the processing

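No call turned its direction under any alternative run. The counts of genes with a higher ratio between neighbouring stages depend most on the settings. With a pseudocount of 1, 31 in place of 48 genes were called at 9 hpf against 5 hpf, 5 in place of 9 at 13 hpf against 9 hpf, 0 in place of 1 at 5 hpf against 4 hpf, and 1 in place of 0 at 18 hpf against 13 hpf. With only the libraries of the 2 stages compared, in fits of 4 libraries, a gene's spread was not pooled over other stages. Then 0 genes were called at 5 hpf against 4 hpf, 0 at 9 hpf against 5 hpf and 0 at 13 hpf against 9 hpf. At 18 hpf against zygote, 80 of 85 were still called. A pseudocount of 50 gave 2 at 18 hpf against 13 hpf and 1 at 4 hpf against zygote, both 0 otherwise. With the larval transcript over all others, 4 were called at 13 hpf against 9 hpf. The replicate block gave 2 higher genes at 18 hpf against 13 hpf, 57 in place of 48 at 9 hpf against 5 hpf, 12 in place of 9 at 13 hpf against 9 hpf and 87 in place of 85 at 18 hpf against zygote. For levels at 18 hpf against zygote it gave 70 in place of 67 lower maternal transcripts, 74 in place of 70 higher larval transcripts and 69 in place of 60 changed sums, and at 9 hpf against 4 hpf 55 in place of 48, 57 in place of 47 and 61 in place of 52. It ended no call among the 90 genes.

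Leaving out 1 library at a time gave 0 to 1 genes at 5 hpf against 4 hpf, 27 to 42 at 9 hpf against 5 hpf, 2 to 7 at 13 hpf against 9 hpf, 0 at 18 hpf against 13 hpf and 77 to 83 at 18 hpf against zygote. Without gastrula replicate 2, 2 genes were lower at 13 hpf against 9 hpf. For levels at 18 hpf against zygote it gave 61 to 63 lower maternal transcripts, 57 to 66 higher larval transcripts and 52 to 57 changed sums, and at 9 hpf against 4 hpf 36 to 46, 38 to 43 and 39 to 45. The called levels that are given with a p for named genes kept their call without any one library and with TMM scaling; other level calls of these genes did not all do so. With a larval share over 50% of the pair as the definition, 27 in place of 42 genes switched at 9 hpf. The smallest change that 2 libraries per stage can show was not determined.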
